A study of Mus musculus with 6 samples.

Results

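The MYC, MAX and MXD network is a group of basic helix-loop-helix leucine zipper transcription factors, and its transcripts were followed in AML12 cells before and after hypoxia and reoxygenation (H/R). The 10 genes listed were the activators Myc, Mycn and Mycl, their shared partner Max, the antagonists Mxd1, Mxd3, Mxd4, Mxi1 (also called Mxd2) and Mnt, and the related factor Mlx. Members were taken by an exact match of the gene symbol, and 9 of the 10 were found among the 25330 genes of each table. The expression of Mycl was not analysed here, and only its promoter sequence was searched.

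AML12 is a mouse hepatocyte line that was established from mice carrying a transforming growth factor alpha transgene. All libraries came from wild-type cells, and mRNA sequencing with a strand-specific kit was performed on 3 Control libraries and 3 H/R libraries. Control cells were kept at 21% oxygen in medium with serum, insulin, transferrin, selenium and dexamethasone. H/R cells, labelled H6R2, spent 6 h at 1% oxygen in medium lacking serum and glucose, and were then reoxygenated for 2 h. Oxygen, reoxygenation and medium were therefore changed together and cannot be told apart in this design. A single cell line was used, and nothing in the labels states that the 3 libraries of a group came from separate cultures, so the p-values measure only the spread between these libraries.

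MAX forms dimers with every MYC and MXD protein and with MNT, and these dimers bind the E-box, CACGTG, in the promoters of shared target genes. MYC-MAX dimers recruit acetyltransferases and elongation factors and raise transcription of genes for ribosome production, nucleotide synthesis and growth, whereas MXD-MAX and MNT-MAX dimers recruit the SIN3 and histone deacetylase corepressor to the same element. MLX pairs with some MXD proteins and MNT, and also with MLXIP and MLXIPL, the glucose-responsive factors. In hepatocytes Myc is known as an immediate early gene of regeneration, and Mxi1 is a known target of hypoxia-inducible factors (HIF).

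Promoter sequences are shown because the E-box is the element that these factors bind, and because Mxi1 and Mxd1 were among the members that differed most between the groups. RefSeq (GRCm38.p6) gave 11 promoters for 9 of the 10 listed genes, each running from 250 bases before to 50 bases after an annotated start, with 3 for Mxi1. Myc had no entry. Both strands were searched for CACGTG (E-box), for ACGTG outside an E-box and for CACCC (an element bound by Krüppel-like factors). ACGTG is a form of the core of the hypoxia response element. It lies inside every E-box and was therefore counted apart from it. Other forms of this core, such as GCGTG, were not searched for. An E-box was present in 4 of the 11 promoters, each of a different member, against 7.15% of all 32851 promoters in the table. The ACGTG core outside an E-box was present in 2 promoters, both of Mxi1, against 13.6% of all promoters, and CACCC in 8 of the 11 promoters against 57.5%. Each line gives the sequence around a match to the E-box or to the ACGTG core outside it, read 5′ to 3′ on the strand of the gene, with the letters of that match in capitals. Matches to CACCC are not marked in these lines. A match describes the letters only and is not evidence of binding.
Max, chr12:76962219-76962278, minus strand: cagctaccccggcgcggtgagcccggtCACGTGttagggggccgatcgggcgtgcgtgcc
Mxd4, chr5:34187897-34187956, minus strand: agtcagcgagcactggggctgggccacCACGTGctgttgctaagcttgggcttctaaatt
Mnt, chr11:74830774-74830833, plus strand: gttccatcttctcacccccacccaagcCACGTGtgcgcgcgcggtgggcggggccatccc
Mlx, chr11:101087223-101087282, plus strand: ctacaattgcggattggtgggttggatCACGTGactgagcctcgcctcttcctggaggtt
Mxi1 promoter 2, chr19:53329320-53329378, plus strand: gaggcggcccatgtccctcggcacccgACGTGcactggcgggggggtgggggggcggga
Mxi1 promoter 3, chr19:53329643-53329701, plus strand: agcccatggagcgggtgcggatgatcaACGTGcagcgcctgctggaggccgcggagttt
Counted from the annotated start, the first base of the E-box was at position -3 in Max, -40 in Mlx, -123 in Mnt and -219 in Mxd4. The ACGTG core began at -66 in Mxi1 promoter 2 and at -25 in promoter 3. The promoter of Mxd1, the member with the largest rise, held none of the letter strings searched for, and no capitals appear in it. The letters GCGTG, which were not searched for, do occur in this promoter. It had a G+C content of 76.7% and 39 CpG dinucleotides in 300 bases.
Mxd1, chr6:86669110-86669409, minus strand: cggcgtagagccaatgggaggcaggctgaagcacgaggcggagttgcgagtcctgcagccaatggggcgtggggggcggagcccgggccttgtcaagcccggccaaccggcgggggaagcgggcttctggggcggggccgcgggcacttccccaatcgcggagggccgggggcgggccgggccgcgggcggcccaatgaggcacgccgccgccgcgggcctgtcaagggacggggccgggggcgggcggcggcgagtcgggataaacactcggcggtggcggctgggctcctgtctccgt

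Library totals lay between 20438746 and 21854790 counts. Counts were scaled between libraries by the trimmed mean of M-values (TMM), and the 14020 genes with enough counts entered 1 quasi-likelihood fit in edgeR, whose p-values were adjusted over all of them by the Benjamini-Hochberg method. One library stood apart from the rest of its group. Control replicate 1 held 131335 counts of the ribosomal RNA gene Rn18s-rs5, against 28347 to 43775 in the others. It also held 533 counts over 10 transcripts of adult liver, against 137 and 146 in the other Control libraries and 65 to 99 in H/R. Hpx, which had the most counts of the 10, had 168.5, 130.7 and 133.7 normalized counts in the Control libraries. Without Hpx, these transcripts had 355 counts in Control replicate 1, 3 in the lowest Control library and 1 in each H/R library. Fold changes of members are therefore given with the range obtained when each library was left out in turn. All 9 hepatocyte markers were detected, and their summed level was 4231 to 4580 CPM (counts scaled to the library total) in Control and 6192 to 6223 in H/R, most of it from Krt8 and Krt18. The hepatocyte factor Hnf4a was lower in H/R (2912 ± 104 against 2187 ± 19.3 normalized counts). Alb had 513, 129 and 197 normalized counts in Control and 46.3, 33.4 and 37.0 in H/R. For cholangiocyte markers, 3 of 4 were detected and their summed level was 1321 to 1486 CPM in Control and 2439 to 2533 in H/R. Of 5 macrophage markers, Ptprc, Adgre1 and Clec4f had 3 or fewer counts in every library. The same held for Pecam1, Cdh5 and Lyve1 of 4 endothelial markers, and for Lrat, Pdgfrb and Dcn of 5 stellate markers. The other listed markers, Cd68, Lyz2, Stab2, Des and Col1a1, were above this floor. Summed counts per library were 2 to 8 for the endothelial list and 11 to 24 for the stellate list. Cd68 rose from 19.1 to 130.4 normalized counts. The part of these shifts in the values of the network was not tested.

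The comparison of H/R with Control asks how the network changed across hypoxia and reoxygenation. Myc, Mxd1, Mxi1, Mxd4, Mnt and Mlx rose, Mycn and Mxd3 fell, and Max missed the threshold. At an adjusted p under 0.05, 8 of the 9 members differed, against 62.8% of all genes tested. The 6 members that rose stand beside a background of 31.0% and the 2 that fell beside 31.8%. With a fold change of at least 2 required as well, 4 members were called, against 8.52% of all genes tested, namely Myc, Mxd1 and Mxi1, which rose (background 4.25%), and Mycn, which fell (background 4.27%). At a fold change of at least 1.5 it was again 4 members, against 24.4% of all genes tested. The 3 Control and 3 H/R libraries did not overlap for 8 of 9 members, against 65.9% of genes tested. The median log2 fold change was 0.49 over the members and -0.01 over all genes tested. In bulk RNA, a change in the share of cells that express a gene and a change in RNA per cell cannot be told apart.

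**Figure D1:**
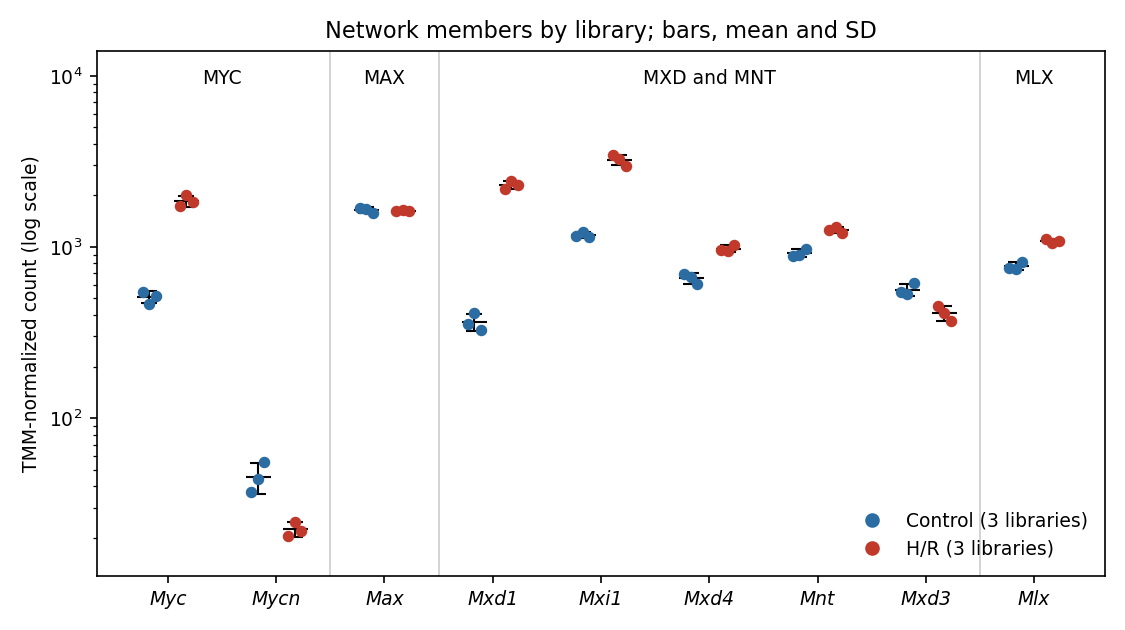
Normalized counts (TMM, log scale) of the 9 members in each of the 3 Control and 3 H/R libraries, with bars for the mean and SD. Mxd1, Myc and Mxi1 show the widest gaps between the groups (6.33-, 3.63- and 2.75-fold higher in H/R), and the points of Max overlap.

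Among the activators, Myc encodes the ubiquitous MYC protein that drives growth and ribosome production. Myc lies on chromosome 15 at 61985391 to 61990374 on the plus strand of GRCm38. The raw counts were 578, 477 and 551 in Control and 1611, 1854 and 1831 in H/R. All H/R libraries were thus far above all Control libraries. Normalized counts were 510.4 ± 41.7 (SD, n = 3) in Control and 1855 ± 134 (n = 3) in H/R. The increase was 3.63-fold, a log2 fold change of 1.86 (SE 0.062, adjusted p = 1.04e-21, edgeR's quasi-likelihood test), and it stayed between 1.80 and 1.91 when each library was left out. Counted from the largest rise in log2 fold change, Myc was in position 143 among the 14020 genes.

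Mycn, the paralog best known from embryonic and neural tissue, was the weakest of the members. It lies on chromosome 12 at 12936096 to 12941914 on the minus strand. Raw counts of Mycn were 39, 45 and 59 in Control and 19, 23 and 22 in H/R. Every H/R library was below every Control library, although the counts were low and the counting error correspondingly wide. Normalized counts were 45.5 ± 9.41 in Control and 22.4 ± 2.20 in H/R, which is 2.02-fold lower with a log2 fold change of -1.02 (SE 0.245, adjusted p = 0.000529, edgeR's quasi-likelihood test). The difference lay close to the fold threshold. It was between -1.15 and -0.85 with each library left out, and without Control replicate 3 or without H/R replicate 1 only 3 members were past both thresholds, with none of them lower.

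The partner Max, without which MYC and MXD proteins do not bind DNA efficiently, lies on chromosome 12 at 76937269 to 76962248 on the minus strand. Raw counts of Max were 1787, 1702 and 1679 in Control and 1503, 1514 and 1625 in H/R. After TMM scaling these became 1692, 1660 and 1581 in Control and 1619, 1633 and 1624 in H/R, so the H/R libraries fell inside the Control range. The log2 fold change was -0.02 (95% interval -0.11 to 0.08, adjusted p = 0.773, edgeR's quasi-likelihood test). When counts were scaled by library totals alone, the value was -0.12 with an adjusted p of 0.0245, while the median over all genes tested moved to -0.12 under the same scaling. The call for Max thus depended on the scaling, and its value was close to that median under both. Without Control replicate 1 it was 0.0043.

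Among the antagonists, Mxd1 had the largest rise. Mxd1 (MAD1) is induced in cells that leave the cycle or differentiate. It lies on chromosome 6 at 86647042 to 86669161 on the minus strand. Raw counts of Mxd1 were 376, 419 and 347 in Control and 2021, 2253 and 2300 in H/R. The lowest H/R library was several times the highest Control library. Normalized counts were 364 ± 41.5 in Control and 2302 ± 127 in H/R, an increase of 6.33-fold (log2 fold change 2.66, SE 0.064, adjusted p = 1.96e-24, edgeR's quasi-likelihood test, 2.59 to 2.75 with each library left out). It was in position 56 of the 14020 genes, counted from the largest rise.

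Mxi1, the antagonist known as a HIF target, lies on chromosome 19 at 53310506 to 53375810 on the plus strand. Its raw counts were 1225, 1259 and 1208 in Control and 3195, 3027 and 2979 in H/R. The libraries of each group lay close together and the groups were well apart. Normalized counts were 1175 ± 47.2 in Control and 3228 ± 234 in H/R, an increase of 2.75-fold (log2 fold change 1.46, SE 0.051, adjusted p = 4.71e-22, edgeR's quasi-likelihood test, 1.41 to 1.52 with each library left out). It was in position 258, counted from the largest rise. Its exons overlap Gm10197 on the opposite strand over 3.45% of their length. Gm10197 rose as well, with 149 to 163 counts in Control and 381 to 472 in H/R. The counting was at gene level, so the 3 promoters of Mxi1 were not told apart.

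Mxd4 and Mnt rose less. Mxd4, an antagonist found mainly in quiescent and differentiated cells, lies on chromosome 5 at 34173883 to 34187720 on the minus strand, and its raw counts were 738, 684 and 644 in Control and 888, 883 and 1028 in H/R. The groups did not overlap, and normalized counts rose from 657 ± 47.0 to 979 ± 42.2 (1.49-fold, log2 fold change 0.57, SE 0.060, adjusted p = 3.48e-10, edgeR's quasi-likelihood test, 0.52 to 0.62 with each library left out). The exons of Mxd4 overlap Gm42846 on the opposite strand over 6.06% of their length. Gm42846 had 19 to 20 counts in Control and 23 to 34 in H/R. Mnt, the broadly expressed antagonist that is present in growing and resting cells alike, lies on chromosome 11 at 74830920 to 74845725 on the plus strand. In raw counts it had 934, 920 and 1035 in Control and 1164, 1218 and 1206 in H/R, again with no overlap. Normalized counts rose from 919 ± 48.7 to 1257 ± 54.3 (1.37-fold, log2 fold change 0.45, SE 0.055, adjusted p = 7.60e-09, 0.42 to 0.50 with each library left out).

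Mxd3 was the only antagonist of the 5 that fell. It is known for expression in proliferating cells during S phase, and lies on chromosome 13 at 55325168 to 55329758 on the minus strand. Its raw counts were 579, 541 and 651 in Control and 418, 380 and 367 in H/R, and all H/R libraries were lower than all Control libraries. Normalized counts were 563 ± 44.5 and 409 ± 41.7, which is 1.38-fold lower (log2 fold change -0.46, SE 0.077, adjusted p = 3.88e-06, edgeR's quasi-likelihood test, -0.54 to -0.39 with each library left out). Its exons overlap Prelid1 on the opposite strand over 5.00% of their length. Prelid1 had 4549 to 5341 counts in Control and 4470 to 4619 in H/R. The strand setting of the counting is not given in the sources used here, which leaves the value of Mxd3 uncertain.

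Mlx, the MAX-like partner, lies on chromosome 11 at 101087277 to 101092207 on the plus strand. Its raw counts were 794, 762 and 871 in Control and 1037, 981 and 1086 in H/R, with no overlap between the groups. Normalized counts rose from 772 ± 42.1 to 1087 ± 29.5 (1.41-fold, log2 fold change 0.49, SE 0.056, adjusted p = 1.99e-09, edgeR's quasi-likelihood test, 0.47 to 0.54 with each library left out). The value is uncertain, since 19.3% of the exon length of Mlx is shared with Psmc3ip on the opposite strand and the strand setting of the counting is not given in the sources used here. The 2 genes differed in direction, and Psmc3ip counts were 2341 to 2447 in Control and 1569 to 1639 in H/R.

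Of 3 further dimer partners, the MLX partner Mlxipl (ChREBP, the glucose-responsive regulator of glycolysis and lipid synthesis in liver) fell from 47.4 ± 7.39 to 22.1 ± 1.45 normalized counts (log2 fold change -1.10, SE 0.239, adjusted p = 0.000155, edgeR's quasi-likelihood test). Mlxip (MondoA) did not pass the test, with 518 ± 37.4 and 545 ± 34.8 normalized counts and a log2 fold change of 0.07, which turned to -0.03 when library totals alone were used. For Mga, a large MAX partner that works in a Polycomb complex, the log2 fold change was 0.16 (SE 0.053, adjusted p = 0.0093), but its libraries overlapped between the groups. With Mga, the call was lost under library totals alone (log2 fold change 0.06) and without Control replicate 1 (0.12), without Control replicate 3 (0.13) or without H/R replicate 2 (0.14).

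Levels between genes were compared with the deposited RPKM values, which are counts divided by exon length and library total. In Control, Max had the highest level (40.1 ± 0.776 RPKM), followed by Mlx (18.9 ± 1.32), Mxd3 (13.3 ± 1.24), Mxi1 (10.2 ± 0.366), Mnt (9.73 ± 0.671) and Myc (9.20 ± 0.744). The ranges of Mxi1 and Mnt overlapped, as did those of Mnt and Myc, so these neighbours cannot be ordered. Mxd4 (3.79 ± 0.213), Mxd1 (2.52 ± 0.268) and Mycn (0.678 ± 0.151) were the lowest. In H/R, Max (36.9 ± 0.379) was still the highest, but Myc (31.1 ± 2.25) was next, ahead of Mxi1 (26.1 ± 1.67) and Mlx (24.8 ± 0.662), whose ranges overlapped. Mxd1 (14.8 ± 0.840) moved above Mnt (12.4 ± 0.457), Mxd3 (8.94 ± 0.837), Mxd4 (5.26 ± 0.276) and Mycn (0.310 ± 0.0304). RPKM used the union of all exons of a gene as its length, so a gene with long alternative exons has a lower level on this scale than its main transcript would have.

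**Figure D2:**
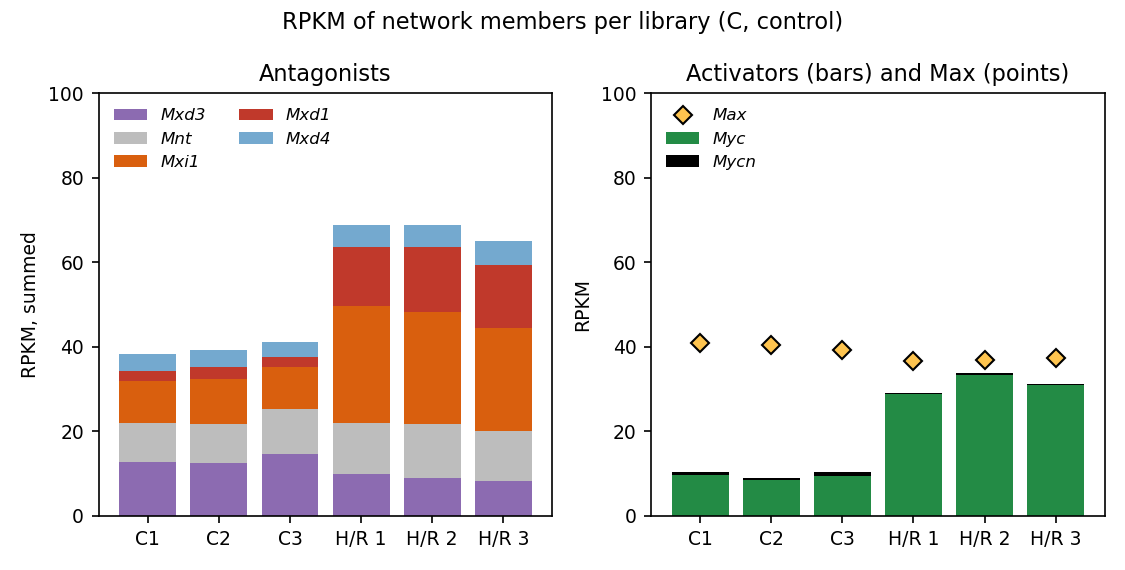
RPKM per library, with the antagonists stacked on the left, and Myc and Mycn as stacked bars with Max as points on the right. The antagonist sum rose from 39.5 in Control to 67.5 in H/R, and the activator bars, 9.88 in Control and 31.4 in H/R, came close to the points of Max.

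Activators and antagonists were then compared within each library as ratios of RPKM, as a description with no test. The sum of Myc and Mycn was 9.88 ± 0.760 RPKM in Control and 31.4 ± 2.28 in H/R (n = 3 each), whereas the sum of the 5 antagonists was 39.5 ± 1.42 and 67.5 ± 2.19. The ratio of activators to antagonists was 0.268, 0.230 and 0.252 in the Control libraries and 0.424, 0.490 and 0.481 in the H/R libraries. Activator transcripts thus stayed below antagonist transcripts in all 6 libraries, and the ratio rose by 0.90 on the log2 scale. The size depended on the scale, since sums of normalized counts in place of RPKM gave 0.60 and leaving Mxi1 out of the antagonists gave 1.17. Leaving out Mxd3, the only antagonist that fell, was not tried, so its part in the rise of the ratio is not given.

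The ratio depended on which antagonist was set against Myc. Myc relative to Mxi1 was 0.901 ± 0.103 in Control and 1.19 ± 0.131 in H/R. Myc relative to Mxd1 went the other way, from 4.001, 2.96 and 4.13 in Control to 2.07, 2.14 and 2.07 in H/R, as the fold change of Mxd1 was larger than that of Myc. Within the activators, the share of Mycn was 6.87 ± 1.45% in Control and 0.986 ± 0.0251% in H/R.

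Within the antagonists, the makeup of the pool changed as well. Mxd3 made up 33.5 ± 2.06% of antagonist RPKM in Control, the largest share, and 13.2 ± 0.904% in H/R. Mxd1 went from 6.38 ± 0.802% to 21.96 ± 1.499%, and Mxi1 from 25.9 ± 1.35% to 38.7 ± 1.43%. The shares of Mnt (24.6 ± 0.808% to 18.3 ± 0.453%) and Mxd4 (9.61 ± 0.874% to 7.80 ± 0.673%) became smaller although their counts rose. Activators and antagonists together, without Mga, went from 1.23 ± 0.0681 to 2.68 ± 0.0963 relative to Max. Myc alone relative to Max went from 0.229 ± 0.0195 to 0.842 ± 0.0571. These are transcript ratios and say nothing of protein levels or of dimers formed.

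**Figure D3:**
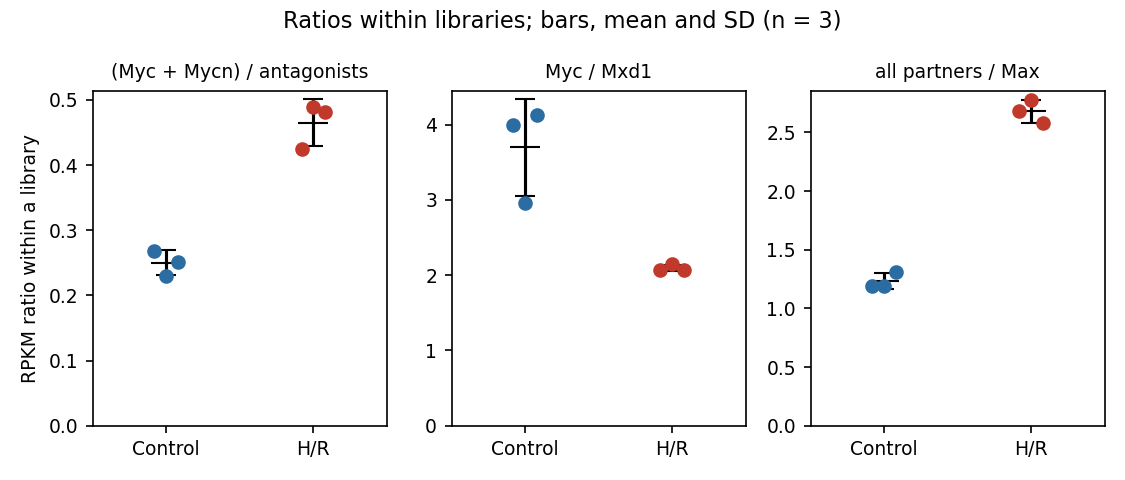
RPKM ratios in each library, with bars for the mean and SD of 3 libraries, for activators over antagonists, Myc over Mxd1, and all partners (activators and antagonists) over Max. The first ratio was higher in H/R (0.250 to 0.465), the middle ratio lower (3.70 to 2.10) and the last higher (1.23 to 2.68), with no overlap between groups.

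The corepressor recruited by MXD and MNT was covered by 18 genes of the SIN3 and histone deacetylase complexes. At an adjusted p under 0.05, 5 rose (27.8%, against 31.0% of all genes tested), 9 fell (50%, against 31.8%) and 4 did not pass the test, and the median log2 fold change was -0.07 against -0.01 over all genes tested. The increases were led by Sap30, a SIN3-associated subunit, from 2388 ± 73.3 to 3961 ± 91.9 normalized counts (log2 fold change 0.73, adjusted p = 1.42e-16, edgeR's quasi-likelihood test), and by the subunit Arid4a (0.63). Brms1l, which belongs to the same complexes, fell from 1442 ± 83.2 to 572 ± 26.0 (log2 fold change -1.33, adjusted p = 3.34e-20) and was the only gene of the list past both thresholds. Sap30l, the paralog of Sap30, fell by 0.63 on the log2 scale.

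Coactivators and cofactors of MYC were covered by 17 genes, of which 9 rose (52.9%, against 31.0% of all genes tested), 6 fell (35.3%, against 31.8%) and 2 did not pass the test. The median log2 fold change was 0.14. None reached a fold change of 2. With library totals alone the counts were 6 and 6, while the median over all genes tested moved to -0.12. The background shares given here are those of TMM scaling. Zbtb17 (MIZ1, the factor through which MYC represses genes) rose from 459.6 ± 40.8 to 658 ± 46.7 normalized counts (log2 fold change 0.52). The acetyltransferase Kat2a (GCN5) had a log2 fold change of -0.48 and the elongation factor Paf1 one of -0.34, and both fell at an adjusted p under 0.05.

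Of 15 genes that control the stability of MYC protein, 6 rose (40%, against 31.0% of all genes tested), 7 fell (46.7%, against 31.8%) and 2 did not pass the test. The median log2 fold change was 0.08. With library totals alone 3 rose and 7 fell, but the background shares given here are those of TMM scaling. That change of scaling moved the median over all genes tested to -0.12. Fbxo32, an F-box ubiquitin ligase subunit best known from muscle atrophy, rose from 116 ± 25.2 to 224 ± 16.7 normalized counts (log2 fold change 0.94, adjusted p = 9.68e-08, edgeR's quasi-likelihood test). Usp36, a nucleolar deubiquitinase that stabilises MYC, rose from 1964 ± 74.4 to 3675 ± 227 (0.90, adjusted p = 5.12e-18). Skp2, a ubiquitin ligase subunit and cell cycle gene, fell from 386 ± 7.91 to 198 ± 20.1 (-0.96, adjusted p = 2.28e-11), and the mitotic kinase Aurka fell as well (-0.38).

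Known MYC target genes were described as 3 lists. Of 32 genes that MYC is known to induce in ribosome production, nucleotide synthesis, translation and the cell cycle, 31 were tested, of which 5 rose (16.1%, against 31.0% of all genes tested), 18 fell (58.1%, against 31.8%) and 8 did not pass the test. None reached a fold change of 2, and the median log2 fold change was -0.17. With library totals alone, 2 rose and 23 fell, while the median over all genes tested moved to -0.12. The shares of 31.0% and 31.8% belong to TMM scaling and are no background for these 2 counts. Npm1, the nucleolar chaperone of ribosome assembly, rose from 45253 ± 1639 to 60554 ± 1268 normalized counts (log2 fold change 0.42, adjusted p = 6.89e-10, edgeR's quasi-likelihood test), although its processed pseudogenes leave its counts uncertain. E2f2, a cell cycle factor, rose by 0.36 on the log2 scale (adjusted p = 0.000401), but on log2(RPKM + 1) limma gave an adjusted p of 0.066. E2f1 fell from 411 ± 17.1 to 222 ± 24.7 (-0.88, adjusted p = 1.30e-10), and Dkc1, the pseudouridine synthase of ribosomal and telomerase RNA, from 2761 ± 91.6 to 1523 ± 30.5 (-0.86, adjusted p = 7.81e-18).

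Of 8 targets that MYC shares with HIF, 7 rose (87.5%, against 31.0% of all genes tested) and 1 fell. Past both thresholds, 4 rose, against 4.25% of all genes tested, and the median log2 fold change was 0.95. Slc2a1, the glucose transporter GLUT1, rose from 788 ± 15.3 to 6357.5 ± 194 normalized counts (8.06-fold, adjusted p = 7.64e-33, edgeR's quasi-likelihood test). Hk2, a hexokinase that traps glucose for glycolysis, rose from 67.7 ± 5.66 to 257 ± 12.4 (3.79-fold, adjusted p = 6.17e-16). Tfrc, the transferrin receptor, was the exception and fell from 2610.2 ± 127 to 799 ± 61.0 (3.26-fold lower, adjusted p = 1.13e-23).

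Of 11 genes that MYC is known to repress, 9 were analysed, of which 8 rose and 1 fell, with 5 past both thresholds upwards, against 4.25% of all genes tested (median log2 fold change 1.61). Ndrg1, a stress gene that hypoxia also induces, rose from 4733 ± 385 to 44571 ± 1104 normalized counts (9.42-fold, adjusted p = 8.33e-31, edgeR's quasi-likelihood test). Thbs1, the angiogenesis inhibitor thrombospondin, rose from 42.4 ± 10.1 to 241 ± 7.55 (5.67-fold, adjusted p = 4.25e-17). Cebpa, the hepatocyte differentiation factor, was the gene that fell, from 19.1 ± 3.39 to 10.5 ± 2.11 (adjusted p = 0.0319, edgeR's quasi-likelihood test). Its raw counts were low, with 24, 19 and 17 in Control and 9, 12 and 9 in H/R (log2 fold change -0.85, SE 0.346). Cebpa lies below the minimum of 100 normalized counts set for named genes and is named here after its value was seen. The share of these 9 genes that rose was 88.9%, against 31.0% of all genes tested.

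**Figure D4:**
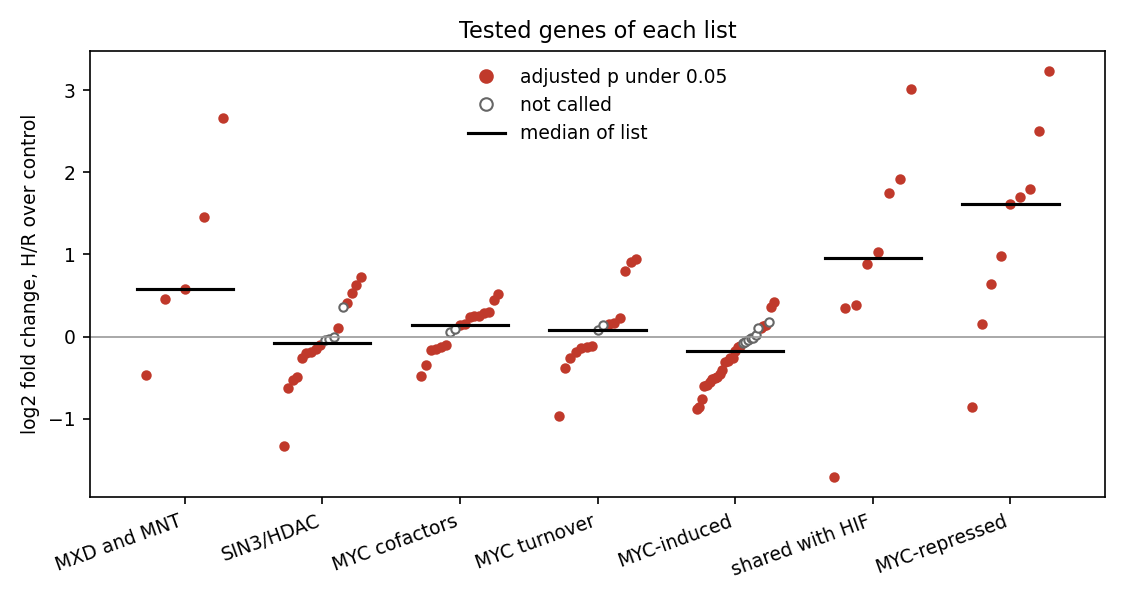
Log2 fold change (H/R over Control) of each tested gene in the 5 antagonists and 6 further lists, with filled points for an adjusted p under 0.05 and a line at the median of each list. Medians ran from -0.17 for MYC-induced genes to 1.61 for MYC-repressed genes.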

How the data were processed

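Total RNA of AML12 cells was made into 3 Control and 3 H/R libraries with a strand-specific mRNA kit and sequenced. The deposited counts are raw reads per gene that the authors obtained with featureCounts from Subread 1.5.1 on GRCm38, after trimming with Trimmomatic 0.36 per the submitters' processing notes. The deposited RPKM values were made by the authors from these counts, the union exon length and the library total, which recomputation matched with a largest relative error of 1.12803e-06. The authors used edgeR 3.12.1. The strand setting of the counting is not given in the sources used here, so overlapping genes on opposite strands cannot be told apart.

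Counts were tested here in R 4.3.3 with edgeR 4.0.16 (TMM scaling, filterByExpr, robust quasi-likelihood fit, Benjamini-Hochberg adjustment over 14020 genes), after testing the fit on simulated data. Calls used an adjusted p under 0.05 and, where stated, a fold change of at least 2. Normalized counts are TMM-scaled. Library totals of 20438746 to 21854790 counts set the precision, and replicate libraries differed by more than counting error (chi-square divided by its degrees of freedom, 2.26 to 17.4). Alternatives used limma 3.58.1 and DESeq2 1.42.0. Samples were grouped by their labels. The members and all lists were chosen with earlier results of these data known. Named genes were all members, all further partners and, from each other list, up to 2 with the largest rise and up to 2 with the largest fall among called genes with a mean of at least 100 normalized counts, and 1 gene that the rule names is not reported here. Ratios and motif matches carry no test.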

Additional observations from a re-analysis of the deposited data

How the results depend on the processing

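Under 17 alternatives for each member (scaling, filters, DESeq2, limma on log2 RPKM, a replicate block and leaving out each library), the members other than Max kept their direction and their call at an adjusted p under 0.05. Ranges of the log2 fold change were 1.65 to 1.91 for Myc, 2.17 to 2.75 for Mxd1, 1.27 to 1.52 for Mxi1 and -1.15 to -0.35 for Mycn, whose smallest value came from limma on log2(RPKM + 1), a scale that understates changes of low genes. With limma on log2(RPKM + 0.1) Mycn was at -0.91, so it fell short of a fold change of 2 in both limma fits. Max was called lower with library totals alone (-0.121), with library totals without Rn18s-rs5, chosen after seeing the data (-0.1229), and with limma on log2(RPKM + 1) (-0.1178) and log2(RPKM + 0.1) (-0.1206). It was 0.0043 without Control replicate 1, within a range of -0.0443 to 0.0043 over left-out libraries. Mlxip, at 0.07, turned to -0.0305, -0.0325, -0.0219 and -0.0281 in those same 4 settings. The count of further partners called was 2 and became 1 in those 4 and with upper quartile scaling, and 1 to 2 with libraries left out, since Mga lost its call. The log2 ratio of activators to antagonists was 0.8962, and 0.6041 with normalized counts or 1.169 without Mxi1. Over all genes, the count past both thresholds was 1195 and between 406 and 1521 over these alternatives. Among 30 other named genes, 2 (Mga and E2f2) lost their call in 10 values in all.

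Same-numbered libraries did not deviate together (correlations -0.0269, 0.0048 and -0.0141), so the numbers are taken as names. With the replicate block, Myc was at 1.86, Mxd1 at 2.66 and Mycn at -1.01, and 8 members were still called. Among members and further partners, low counts limit Mycn and Mlxipl most.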

Other observations

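Pvt1, a long non-coding RNA gene beside Myc, rose with it. It had 173 ± 8.0 normalized counts in Control and 377 ± 18.8 in H/R (n = 3 each), a log2 fold change of 1.12 (SE 0.091, adjusted p = 5.78e-13, edgeR's quasi-likelihood test).

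The genes closest to Myc in their pattern over the 6 libraries were ranked among 10177 genes by the Euclidean distance of centred log2 CPM. They were Hk2 (distance 0.123), Cited2, a feedback inhibitor of HIF activity (0.178), and Pvr, an adhesion receptor (0.179). Cited2 had 958 normalized counts in Control and 3684 in H/R, and Pvr 686 and 2514. Those closest to Mxi1 were Fermt2, an integrin-binding adhesion protein (0.106), Atf6, a sensor of endoplasmic reticulum stress (0.122), and Cpeb4, a regulator of translation (0.130). Their normalized counts went from 601 to 1631, from 717 to 1952 and from 375 to 1024. With 2 groups of 3 libraries, this distance mainly reflects a like difference between the groups.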
